A study of Mus musculus with 21 samples.

Results

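The genes described here belong to cyclic AMP signalling: the phosphodiesterases Pde4b, Pde4d, Pde7a and Pde8a, the prostaglandin receptor Ptger4, the adenylyl cyclase Adcy7, the protein kinase A subunit Prkar1a, and the transcription factors Creb1 and Crem. They are 9 genes by name, and 8 of them were measured among the 12393 genes with a probe set of a single gene symbol. Pde4d had no such probe set and has no value here. Each gene was read from its brightest probe set, by the mean of all 21 arrays, and its other probe sets served as a check. Pde4b was chosen by its own array values, being lower with the smaller particles, so its levels are a description and carry no test.

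Cyclic AMP is a second messenger made by adenylyl cyclases when receptors coupled to the stimulatory G protein, such as the prostaglandin E2 receptor EP4, are occupied. It releases the catalytic subunits of protein kinase A from their regulatory subunits, and the kinase phosphorylates CREB, which then drives transcription from the cyclic AMP response element in target promoters. Phosphodiesterases end the signal by breaking cyclic AMP down, and in macrophages a raised cyclic AMP level is known to dampen the release of inflammatory cytokines such as TNF, while the PDE4 family is a target of anti-inflammatory drugs.

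The cells were RAW 264.7, a tumour-derived mouse macrophage line, with no genetic change named in the labels. They were exposed for 2 h, in medium without serum, to amorphous silica particles of 10 nm at 5, 20 or 50 µg/ml, or of 500 nm at 250, 500 or 1000 µg/ml. Untreated cells were the control, and the labels do not say whether they were also moved to serum-free medium. Each of the 7 groups had 3 arrays. Nominal particle surface per volume, taken as dose over diameter, was equal for 10 nm silica at 5 µg/ml and 500 nm silica at 250 µg/ml, and equal again for 10 nm at 20 µg/ml and 500 nm at 1000 µg/ml. At 50 µg/ml the 10 nm particles had 10 times the nominal surface of their lowest dose, against 4 times that surface for 500 nm silica at 1000 µg/ml. The labels give one culture plate for growth and another for treatment, and do not state whether each replicate was a culture of its own, so the p-values cover only the spread among these arrays, part or all of which may be technical.

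Arrays have no read depth, and their number limits the precision. Correlations across genes were 0.983 to 0.998 within groups and 0.969 to 0.998 between groups. In 7 of 7 groups the replicate 3 array had the narrowest spread of values and the top score on the leading component of the within-group deviations, so where a named call was lost without a replicate 3 array, its p without that array is given, alone or within a range. Of 9 macrophage markers, 6 read 9.1 or more on the log2 scale (Csf1r, Lyz2, Cd68, Cd14, Fcgr1 and Adgre1), whereas Itgam read 6.02, Mrc1 3.73 and Cd163 2.96. Summed macrophage marker intensity was 27880 to 30748 at the highest 10 nm dose, 27300 to 29394 at the highest 500 nm dose and 29427 to 32882 in untreated cells. Among the markers of other cell types the brightest were Cd3e at 6.40, Flt3 at 6.17 and Dcn at 5.78.

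CREB binds the palindrome TGACGTCA or its shorter form TGACG, which reads CGTCA on the other strand, and the promoters of the members were therefore searched for these letters on both strands. The windows run from 250 bases before to 50 after each RefSeq transcription start (GRCm38.p6). Of all 32851 mouse windows, 1.79% held TGACGTCA and 20.8% held the shorter form, which every palindrome contains. A total of 7 members were searched, with 17 windows. Pde7a had no window. Crem was left out of the search, so whether its promoters hold either form was not tested. The shorter form was present in 6 of the 17, from Pde4b, Pde8a, Adcy7 and Prkar1a. Among the members searched, the palindrome was present in 2 overlapping windows of Prkar1a alone. The sequences below show the Pde4b window with a match and a Prkar1a window with the palindrome. They are on the plus strand, at chr4:102421305-102421604 for Pde4b and at chr11:109650612-109650911 for Prkar1a, with matches in capitals.
Pde4b: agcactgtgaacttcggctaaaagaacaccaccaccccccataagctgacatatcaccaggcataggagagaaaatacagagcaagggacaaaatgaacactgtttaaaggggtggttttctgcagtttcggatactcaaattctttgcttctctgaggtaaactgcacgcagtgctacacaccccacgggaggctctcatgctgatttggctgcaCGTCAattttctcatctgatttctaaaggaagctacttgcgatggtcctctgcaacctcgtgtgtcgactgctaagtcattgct
Prkar1a: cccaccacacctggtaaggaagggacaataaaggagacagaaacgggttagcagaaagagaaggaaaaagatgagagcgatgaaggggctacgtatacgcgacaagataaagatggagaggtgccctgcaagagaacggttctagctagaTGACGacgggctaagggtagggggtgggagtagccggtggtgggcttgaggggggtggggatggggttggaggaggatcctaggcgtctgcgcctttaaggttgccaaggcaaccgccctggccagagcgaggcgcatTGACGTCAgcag
The Pde4b match begins 34 bases before the start site. In the Prkar1a window a TGACG begins 100 bases before the start site and the palindrome 38 bases after it. A match describes the letters in the window and is not evidence of binding.

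Pde4b encodes phosphodiesterase 4B, a cyclic AMP-specific enzyme that mouse macrophages need for a full TNF response to bacterial lipopolysaccharide. The gene lies on mouse chromosome 4 at 102087332 to 102607275 (GRCm38.p6), and the other measured members lie on chromosomes 3 (Pde7a), 7 (Pde8a), 15 (Ptger4), 8 (Adcy7), 11 (Prkar1a), 1 (Creb1) and 18 (Crem). On the log2 scale, its 3 untreated arrays read 6.55, 6.79 and 6.51. With 10 nm silica they read 5.89, 6.10 and 5.91 at 5 µg/ml, 5.13, 4.84 and 4.93 at 20 µg/ml, and 4.98, 4.31 and 4.41 at 50 µg/ml. With 500 nm silica they read 5.65, 5.75 and 5.94 at 250 µg/ml, 5.73, 5.79 and 5.97 at 500 µg/ml, and 5.99, 6.09 and 5.74 at 1000 µg/ml. All 18 treated arrays lay below all 3 untreated arrays, so that no treated group overlapped the control. Values at the upper 2 doses of 10 nm silica lay below every array of 500 nm silica.

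The Pde4b difference from untreated cells was -0.65, -1.65 and -2.05 log2 units at 5, 20 and 50 µg/ml of 10 nm silica, the last being 4.15-fold lower. It was -0.84, -0.79 and -0.68 at 250, 500 and 1000 µg/ml of 500 nm silica. Each doubling of the dose went with a change of -0.43 log2 units for 10 nm and 0.08 for 500 nm, so the level stepped down with dose for the small particles and was nearly flat over the 3 doses of the large ones. The 6 dose groups share the same 3 untreated arrays, and in bulk samples fewer cells of a type and less RNA per cell cannot be told apart. In order from high to low, untreated cells stood first, the lowest 10 nm dose and the 3 doses of 500 nm silica followed with gaps inside the SD of their arrays, and 20 and then 50 µg/ml of 10 nm silica came last, with overlapping arrays.

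Compared at equal nominal surface, Pde4b averaged 5.97 ± 0.12 at 5 µg/ml of 10 nm silica and 5.78 ± 0.15 at 250 µg/ml of 500 nm silica (SD, n = 3 each), a difference of 0.19 with overlapping arrays. At the higher matched surface it averaged 4.97 ± 0.15 at 20 µg/ml of 10 nm silica and 5.94 ± 0.18 at 1000 µg/ml of 500 nm silica, a difference of -0.97 without overlap. Between the highest doses, which are not matched for surface, 10 nm silica averaged 4.57 ± 0.36 and 500 nm silica 5.94 ± 0.18, a difference of -1.37, or 2.59-fold lower. Replicate 1 at 50 µg/ml was the highest of its group, and the difference from untreated cells was -2.26 without it. A dimmer probe set of Pde4b had larger differences from untreated cells in the same direction, -1.08, -2.73 and -2.98 for rising doses of 10 nm silica and -1.64, -1.53 and -1.37 for 500 nm silica. At the lower matched surface it was higher with 10 nm silica by 0.56, without overlap (6.05, 6.04 and 5.99 against 5.52, 5.19 and 5.70). At the higher matched surface and between the highest doses it differed by -1.36 and -1.61.

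**Figure D1:**
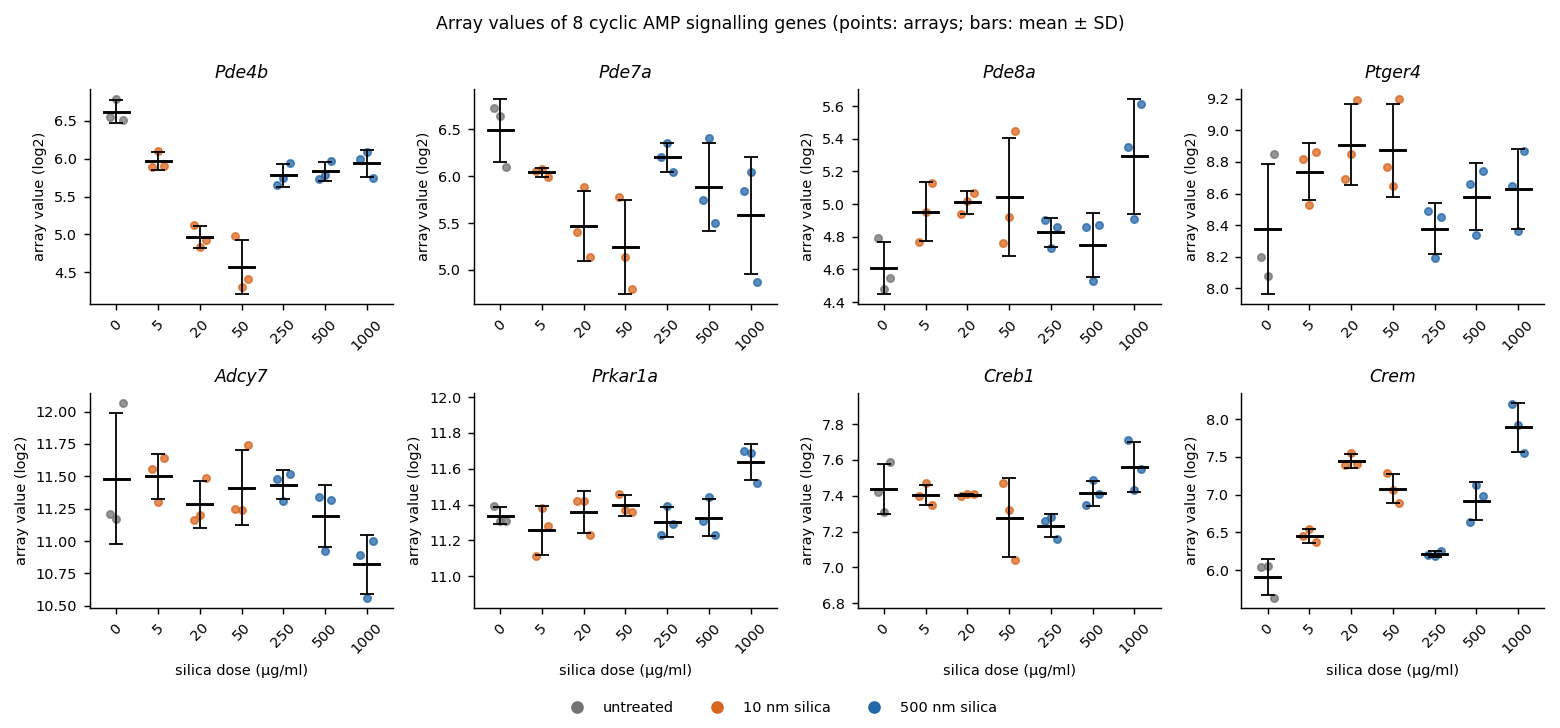
Array values of the 8 measured members (log2, vertical axes, with a scale of its own in each panel) against silica dose in µg/ml, untreated cells at 0. Points are single arrays and bars the mean ± SD of 3 arrays. Pde4b steps down over the 3 doses of 10 nm silica and lies between 5.65 and 6.09 on the arrays of 500 nm silica, while Crem reaches its highest mean, 7.89, at 1000 µg/ml of 500 nm silica.

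The gene profiles nearest to that of Pde4b were found by the root mean square difference over the 21 arrays, after each gene was centred on its mean. The nearest 5 were Gpr84, a receptor for medium-chain fatty acids on macrophages (0.259), Ppcs, an enzyme of coenzyme A synthesis (0.288), Polr3g, an RNA polymerase III subunit (0.288), Thnsl1 (0.309) and Sdhaf1, an assembly factor of succinate dehydrogenase (0.314). The sixth gene stood at 0.317 and the median gene at 0.690. With 50 µg/ml of 10 nm silica, Gpr84 differed from untreated cells by -1.55 log2 units, and with 1000 µg/ml of 500 nm silica by -0.08, a smaller difference at both than the -2.05 and -0.68 of Pde4b. The other 4 differed by -1.18 to -1.51 at the first of these doses and by -0.30 to -0.54 at the second. Among the members, Pde7a was nearest to Pde4b (0.455, rank 196 of 12392 genes) and Crem the farthest (1.12, rank 12312).

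**Figure D2:**
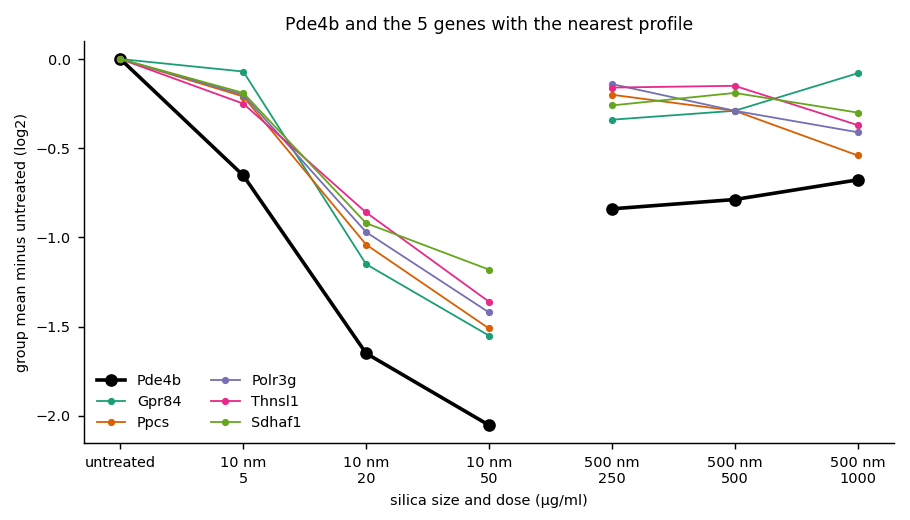
Group mean minus the untreated mean (log2, vertical axis) for Pde4b and the 5 genes with the nearest profile, by silica size and dose in µg/ml. Every line is lowest at 50 µg/ml of 10 nm silica, with Pde4b at -2.05 and Gpr84 at -1.55.

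The other 7 measured members were tested with limma over all 12393 genes, with Benjamini-Hochberg adjustment and calls at an adjusted p under 0.05. At 5 µg/ml of 10 nm silica 0 of the 7 were higher and 0 lower, where 0.605% of all genes were higher and 0.161% lower (0.767% called in all). At 250 µg/ml of 500 nm silica the counts were again 0 and 0, where 0.347% of all genes were higher and 0.0807% lower (0.428% in all). At 20 µg/ml of 10 nm silica 1 was higher and 1 lower, beside 3.22% higher and 7.39% lower over all genes (10.6% in all). At 50 µg/ml 1 was higher and 1 lower, beside 7.58% and 12.6% (20.2% in all). These were Crem and Pde7a at both doses. At 500 µg/ml of 500 nm silica 1 was higher, Crem, and 0 lower, beside 1.26% and 1.51% (2.77% in all). At 1000 µg/ml 3 were higher (Crem, Pde8a and Prkar1a) and 2 lower (Pde7a and Adcy7), beside 5.31% and 10% (15.3% in all). The median difference of the 7 was 0.06 at the highest 10 nm dose and 0.26 at the highest 500 nm dose, beside 0.04 and 0.07 over all genes. Of the 5 calls at 1000 µg/ml, that of Crem was kept without any single array and the other 4 were each lost without at least 1 array. With only replicates 1 and 2 of every group, a setting added after replicate 3 was seen to stand apart, 1 member was higher and 1 lower at 1000 µg/ml of 500 nm silica, and 2 were higher (Crem and Ptger4) and 1 lower at both 20 and 50 µg/ml of 10 nm silica. The calls lost were those of Pde8a, Adcy7 and Prkar1a (limma adjusted p = 0.0621, 0.0587 and 0.0619). Over all genes that setting called 5.08% higher and 8.24% lower at 1000 µg/ml of 500 nm silica, 3.25% and 5.93% at 20 µg/ml of 10 nm silica, and 6.75% and 11.3% at 50 µg/ml.

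Crem, the cyclic AMP response element modulator, encodes activators and, from an internal promoter, the repressor ICER, which is itself induced by cyclic AMP and shuts its targets down. It was higher at the upper 2 doses of both particle sizes. Untreated arrays read 6.04, 6.05 and 5.63. With 10 nm silica, Crem read 6.45, 6.55 and 6.37 at 5 µg/ml, 7.39, 7.55 and 7.40 at 20 µg/ml, and 7.29, 7.06 and 6.89 at 50 µg/ml. With 500 nm silica it read 6.20, 6.18 and 6.25 at 250 µg/ml, 6.63, 7.13 and 6.98 at 500 µg/ml, and 8.20, 7.92 and 7.55 at 1000 µg/ml. Every treated array lay above every untreated array.

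Crem was 2.91-fold higher at 20 µg/ml of 10 nm silica (log2 difference 1.54 ± 0.16 SE, limma adjusted p = 1.2e-06) and 2.25-fold higher at 50 µg/ml (1.17, limma adjusted p = 2.98e-05). With 500 nm silica it was 2.01-fold higher at 500 µg/ml (1.01, limma adjusted p = 0.0007) and 3.95-fold higher at 1000 µg/ml (1.98, limma adjusted p = 3.85e-08). At the lowest doses the differences of 0.55 and 0.30 did not pass (limma adjusted p = 0.182 for 5 µg/ml of 10 nm silica and 0.905 for 250 µg/ml of 500 nm silica). The slope per doubling of dose was 0.21 ± 0.05 for 10 nm silica (limma adjusted p = 0.00529) and 0.84 ± 0.08 for 500 nm silica (limma adjusted p = 7.16e-07). Of the 7 members, 1 had a slope called upward and 0 downward with 10 nm silica, where 3.13% and 9.05% of all genes did (12.2% in all). With 500 nm silica the slope was called upward for 2, Crem and Prkar1a, and downward for 0, where 2.83% and 5.37% of all genes were (8.2% in all). These counts rest on the brightest probe set of each gene. With the mean of all probe sets, the 500 nm slopes of Pde7a and Adcy7 were called downward (-0.372 and -0.315, limma adjusted p = 4.41e-05 and 0.000188). So was the 10 nm slope of Pde7a (-0.231, limma adjusted p = 2.88e-05), while the Prkar1a slope was not called (0.085, 0.562).

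The arrays of Crem at 50 µg/ml of 10 nm silica lay below those at 20 µg/ml, 7.08 ± 0.20 against 7.45 ± 0.09 (SD, n = 3 each), a step for which no test was made. The gap between Crem and Pde4b, taken as Crem minus Pde4b on the same array, was -0.71 ± 0.19 in untreated cells, and 0.49 ± 0.06, 2.48 ± 0.22 and 2.51 ± 0.22 over the rising doses of 10 nm silica (SD, n = 3). Over the rising doses of 500 nm silica it was 0.43 ± 0.12, 1.08 ± 0.23 and 1.95 ± 0.23. These gaps are read from different probe sets, so they can be compared between groups and not read as a ratio of the transcripts. A further probe set of Crem differed from untreated cells in the same direction at every dose, with 1.0 at 50 µg/ml of 10 nm silica and 1.51 at 1000 µg/ml of 500 nm silica (limma adjusted p = 0.000172 and 1.7e-06). It did not step down between 20 and 50 µg/ml of 10 nm silica, averaging 6.46 at both. The dimmest, with a mean of 3.65, had the opposite sign (-0.39 and -0.40, limma adjusted p = 0.0937 and 0.103).

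Creb1 encodes CREB itself, which is regulated mainly by phosphorylation, a state that messenger RNA arrays do not measure. Its group means lay between 7.23 and 7.56, and 0 of its 11 comparisons passed. Creb1 read 7.47, 7.32 and 7.04 at 50 µg/ml of 10 nm silica and 7.71, 7.43 and 7.55 at 1000 µg/ml of 500 nm silica, against 7.42, 7.31 and 7.59 in untreated cells. Both treated groups overlapped the control. The difference from untreated cells was -0.16 (95% interval -0.39 to 0.07, limma adjusted p = 0.294) for 10 nm silica at its highest dose, a sign that turned to 0.02 after quantile normalization and to 0.03 with only replicates 1 and 2, and 0.12 (-0.11 to 0.35, limma adjusted p = 0.47) for 500 nm silica. The slope over the 500 nm doses was 0.16 per doubling (limma adjusted p = 0.0756), and it passed after quantile normalization (0.20, limma adjusted p = 0.0132) and after median centring of the arrays (0.20, limma adjusted p = 0.0209).

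Pde7a, a high-affinity phosphodiesterase specific for cyclic AMP, was lower at the upper 2 doses of 10 nm silica and at the highest dose of 500 nm silica. Untreated arrays read 6.72, 6.64 and 6.10. Over the rising doses of 10 nm silica Pde7a read 6.05, 6.08 and 5.99, then 5.40, 5.88 and 5.14, then 5.78, 5.14 and 4.80. Over those of 500 nm silica it read 6.20, 6.35 and 6.04, then 5.75, 6.41 and 5.50, then 5.84, 6.04 and 4.87. Replicate 3 was the lowest array in each of the 7 groups, and all arrays of the 3 groups named as lower lay below the untreated ones. Using only replicates 1 and 2 ended none of the 3 calls, whereas quantile normalization ended those at 20 µg/ml of 10 nm silica and 1000 µg/ml of 500 nm silica (limma adjusted p = 0.0835 and 0.0969), and median centring ended the second of these (0.058).

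Pde7a was 2.37-fold lower at 50 µg/ml of 10 nm silica (log2 difference -1.24 ± 0.29 SE, limma adjusted p = 0.00522), a call kept without each of the 6 arrays in turn. At 20 µg/ml it was 2.02-fold lower (-1.01, limma adjusted p = 0.0301). That call was lost without untreated replicate 1 or 2 (limma adjusted p = 0.106 and 0.0942) and without replicate 1 or 3 at that dose (0.103 and 0.132). At 1000 µg/ml of 500 nm silica Pde7a was 1.87-fold lower (-0.90, limma adjusted p = 0.0426). That call was lost without untreated replicate 1 or 2 (limma adjusted p = 0.13 and 0.124) and without replicate 1 or 3 at that dose (0.0503 and 0.25, with a difference of -0.55 without replicate 3). Of the 3 other probe sets, 2 were called at both highest doses with a smaller p than the brightest (limma adjusted p from 5.39e-06 to 1.33e-05). Their differences were -1.17 and -1.48 for 10 nm and -1.19 and -1.56 for 500 nm silica. The remaining one gave -0.44 and -0.42 (limma adjusted p = 0.0538 and 0.0829). The slope over the 10 nm doses was -0.24 per doubling (limma adjusted p = 0.0778) and passed without replicate 1 at 50 µg/ml (-0.32, limma adjusted p = 0.025). On the 3 other probe sets it was -0.153, -0.219 and -0.309 (limma adjusted p = 0.038, 0.0025 and 0.000803).

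Pde8a, a phosphodiesterase with very high affinity for cyclic AMP, was dim, with a mean of 4.93 that put it in the lowest 33.3% of genes (below 5.05). It read 5.35, 4.91 and 5.61 at 1000 µg/ml of 500 nm silica, against 4.79, 4.48 and 4.55 in untreated cells. The 2 groups did not overlap, and the gene was 1.61-fold higher (log2 difference 0.68 ± 0.17 SE, limma adjusted p = 0.0112). Without replicate 3 at that dose the difference was 0.52 (limma adjusted p = 0.076), and on the other probe set, dimmer still, 0.18 (limma adjusted p = 0.406). At 50 µg/ml of 10 nm silica Pde8a read 4.76, 4.92 and 5.45, a difference of 0.44 (limma adjusted p = 0.0849) that passed without replicate 1 (0.58, limma adjusted p = 0.0324).

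Ptger4 encodes EP4, the prostaglandin E2 receptor that raises cyclic AMP, and none of its 11 comparisons passed. Untreated arrays read 8.20, 8.08 and 8.85. With 10 nm silica it read 8.82, 8.53 and 8.86 at 5 µg/ml, 8.69, 8.85 and 9.19 at 20 µg/ml, and 8.77, 8.65 and 9.20 at 50 µg/ml. With 500 nm silica the group means lay between 8.38 and 8.63. Untreated replicate 3 overlapped the treated arrays, and the other 2 untreated arrays lay below every array of 10 nm silica. The differences of 0.54 at 20 µg/ml and 0.50 at 50 µg/ml did not pass (limma adjusted p = 0.101 and 0.083). Without untreated replicate 3 they were 0.77 and 0.74 (limma adjusted p = 0.0139 and 0.012). Both also passed with replicate number as a block, array weights, only replicates 1 and 2, and the mean of both probe sets (limma adjusted p = 0.000578 and 0.0113 for the last). After median centring only that at 50 µg/ml passed (0.0403). Neither passed after quantile normalization, with an intensity trend or without the dimmest 33.3% of genes. The other probe set passed at neither dose (0.12 and 0.37).

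Adcy7 encodes a cyclase that is abundant in blood and immune cells and is enhanced by the G protein beta and gamma subunits. It read 10.89, 10.56 and 11 at 1000 µg/ml of 500 nm silica, against 11.21, 11.17 and 12.07 in untreated cells. The groups did not overlap, although untreated replicate 3 lay well above the other 2. The gene was 1.58-fold lower (log2 difference -0.66 ± 0.21 SE, limma adjusted p = 0.0343). The call was lost without untreated replicate 3 (-0.37, limma adjusted p = 0.183) and without replicate 1 or 2 at that dose (limma adjusted p = 0.0632 and 0.124), and the value was -0.57 after median centring of the arrays (limma adjusted p = 0.0701). The other 2 probe sets of Adcy7 gave -0.96 and -0.44 (limma adjusted p = 3.75e-06 and 0.0383). At 50 µg/ml of 10 nm silica Adcy7 read 11.25, 11.24 and 11.74, a difference from untreated cells of -0.07 (95% interval -0.50 to 0.36, limma adjusted p = 0.823), and 1 of its other probe sets was lower there (-0.36, limma adjusted p = 0.0252).

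Prkar1a encodes the regulatory subunit RI alpha, which holds the catalytic subunits of protein kinase A inactive until cyclic AMP binds. It read 11.70, 11.69 and 11.52 at 1000 µg/ml of 500 nm silica, against 11.39, 11.31 and 11.31 in untreated cells. The groups did not overlap, and the gene was 1.23-fold higher (log2 difference 0.30 ± 0.10 SE, limma adjusted p = 0.0433). The call was lost without any 1 of the 3 untreated arrays (limma adjusted p = 0.0596, 0.114 and 0.0933 for replicates 1, 2 and 3) and without replicate 1 or 2 at that dose (0.13 and 0.109). The slope over the 500 nm doses was 0.17 per doubling (limma adjusted p = 0.0369). It was lost without replicate 1 or 3 at 250 µg/ml (limma adjusted p = 0.149 and 0.114) and without replicate 1 or 2 at 1000 µg/ml (0.13 and 0.111). The other probe set of Prkar1a had a difference of -0.03 at 1000 µg/ml (limma adjusted p = 0.945), and the mean of both gave 0.14 there and a slope of 0.085 (0.543 and 0.562). With 10 nm silica the means lay between 11.26 and 11.39, and no comparison with untreated cells passed.

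**Figure D3:**
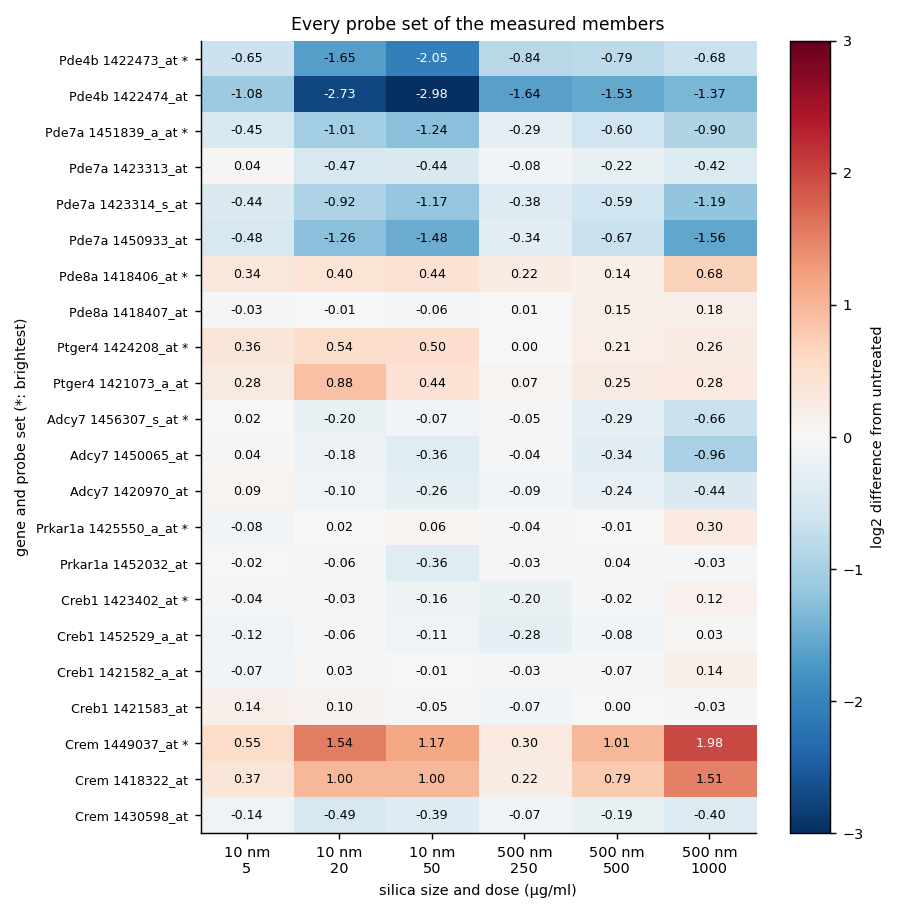
Log2 difference from untreated cells (colour and printed value) for every probe set of the 8 measured members, by silica size and dose in µg/ml. Both probe sets of Pde4b are below 0 at all 6 doses, and the dimmest of the 3 Crem probe sets has the opposite sign to the others.

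The particle sizes were compared directly in 3 pairs. At the lower matched surface, 10 nm at 5 against 500 nm at 250 µg/ml, 0 of the 7 tested members were higher and 0 lower, where 0.0807% and 0.00807% of all genes were (0.0888% in all). At the higher matched surface, 10 nm at 20 against 500 nm at 1000 µg/ml, 0 of 7 were higher and 0 lower, where 1.81% and 1.04% of all genes were (2.85% in all). Between the highest doses 0 of 7 were higher and 1 lower with 10 nm silica, where 3.37% and 4.15% of all genes were (7.52% in all). The gene that passed was Crem, which averaged 7.08 ± 0.20 with 10 nm and 7.89 ± 0.33 with 500 nm silica (SD, n = 3 each) and was 1.75-fold lower with 10 nm silica (log2 difference -0.81 ± 0.16 SE, limma adjusted p = 0.00311). Its arrays did not overlap, and its second probe set gave -0.51 (limma adjusted p = 0.0631).

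At the higher matched surface Crem differed by -0.44 (95% interval -0.78 to -0.11, limma adjusted p = 0.188), and the arrays overlapped. For Pde7a the size differences were -0.16, -0.11 and -0.34 in the 3 pairs, each with an interval that spans 0 and reaches -0.72 or beyond (limma adjusted p from 0.577 to 1). Its 3 other probe sets gave 0.116, -0.066 and -0.141 at the lower matched surface and -0.055, 0.267 and 0.301 at the higher. Between the highest doses they gave -0.026, 0.019 and 0.072, and none of these differences passed. Adcy7 averaged 11.41 ± 0.29 at 50 µg/ml of 10 nm silica and 10.82 ± 0.23 at 1000 µg/ml of 500 nm silica, without overlap, a difference of 0.59 (95% interval 0.16 to 1.02) that did not pass (limma adjusted p = 0.0938). One of its other probe sets gave 0.60 and passed (limma adjusted p = 0.0016), and the remaining one gave 0.185 (0.514). At the higher matched surface Adcy7 differed by 0.47, again without overlap, and did not pass (limma adjusted p = 0.341). There the same other probe sets gave 0.78, which passed (limma adjusted p = 0.000312), and 0.34 (0.288). For Prkar1a and Creb1 the differences between the highest doses were -0.24 and -0.28 (limma adjusted p = 0.157 and 0.137), and for Pde8a and Ptger4 they were -0.25 and 0.24 (limma adjusted p = 0.481 and 0.553).

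**Figure D4:**
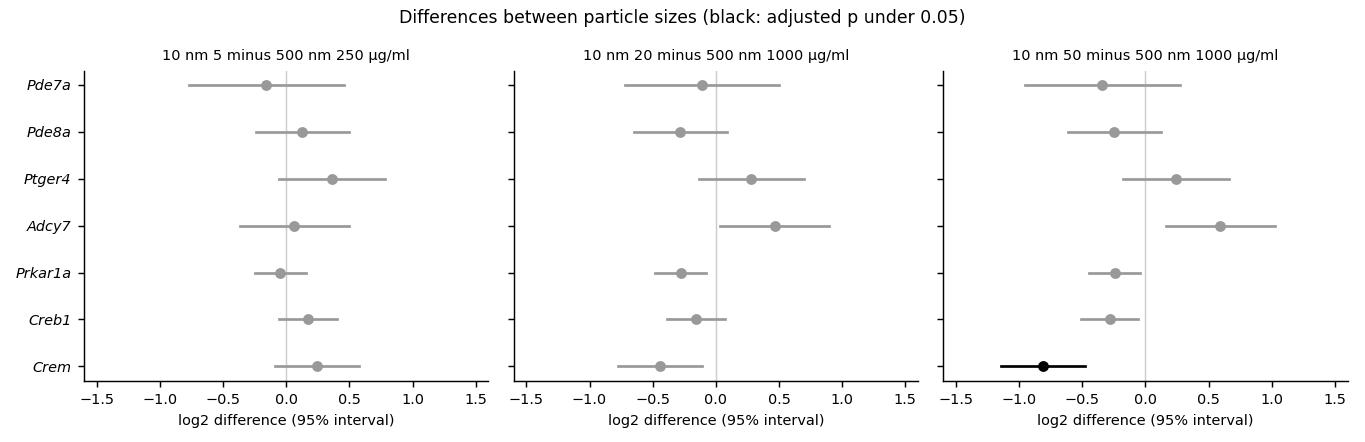
Log2 difference of 10 nm minus 500 nm silica with its 95% interval (horizontal axis) for the 7 tested members in 3 pairs of doses. Crem at the highest doses, at -0.81, is the only black point, with an adjusted p under 0.05.

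Of 74 other genes of the pathway, 51 were measured. At 50 µg/ml of 10 nm silica 3 were higher and 4 lower, where 7.58% and 12.6% of all genes were. At 1000 µg/ml of 500 nm silica 1 was higher and 4 lower, where 5.31% and 10% of all genes were. Each of these counts is a smaller share of the 51 than of all genes. The median differences were 0.05 and 0.05, beside 0.04 and 0.07 over all genes. Median centring of the arrays, which moved the all-gene median at the highest 10 nm dose from 0.04 to 0.14, gave 10 higher and 2 lower there, and 3 and 3 at the highest 500 nm dose. Of all 12393 genes it called 2953 at the highest 10 nm dose and 2100 at the highest 500 nm dose, against 2506 and 1898 without it. The split of these genes by direction was not taken in that setting.

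Among the receptors that raise cyclic AMP, 9 of 13 were measured, with 1 higher and 2 lower at each highest dose, beside the same shares of all genes (7.58% and 12.6% with 10 nm, 5.31% and 10% with 500 nm silica). Gpr65, an acid-sensing receptor of leukocytes, read 6.27, 6.17 and 6.25 at 50 µg/ml of 10 nm silica, against 7.81, 7.67 and 8.22 in untreated cells. It was 3.18-fold lower there (log2 difference -1.67 ± 0.12 SE, limma adjusted p = 5.89e-09) and 2.79-fold lower at 1000 µg/ml of 500 nm silica (-1.48, limma adjusted p = 3.33e-08). The size difference at the highest doses was -0.19 (limma adjusted p = 0.403).

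Calcrl, the receptor component for calcitonin gene-related peptide and adrenomedullin, read 6.64, 6.35 and 6.58 at 1000 µg/ml of 500 nm silica, against 7.82, 7.81 and 8.81 in untreated cells. It was 3.09-fold lower (log2 difference -1.63 ± 0.23 SE, limma adjusted p = 4.12e-05). At 50 µg/ml of 10 nm silica it was lower by less (-0.68, limma adjusted p = 0.0391), a call lost without untreated replicate 3 (-0.35, limma adjusted p = 0.174) and without replicate 1 or 2 at that dose (0.125 and 0.105), as well as after quantile normalization (0.228) and median centring (0.0738). Calcrl was higher with 10 nm than with 500 nm silica at the highest doses (0.94, limma adjusted p = 0.0127), a call lost without 10 nm replicate 3 (0.71, limma adjusted p = 0.0771) or 500 nm replicate 2 (0.066). Vipr2, a receptor for vasoactive intestinal peptide, was dim, averaging 3.78 in untreated cells and 4.33 at 50 µg/ml of 10 nm silica. Both means lie under the 5.05 that bounds the lowest 33.3% of genes. Vipr2 was higher at that dose (0.56, limma adjusted p = 0.0301). The p was 0.0516 to 0.187 without untreated replicate 1 or 2 or without replicate 2 or 3 at that dose. Without that replicate 3 the difference was 0.34. After quantile normalization the p was 0.0696.

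Ptgir, the prostacyclin receptor, was the 1 receptor called higher at 1000 µg/ml of 500 nm silica and is named after its values were seen. It read 7.23, 6.83 and 7.01 at 1000 µg/ml of 500 nm silica and 6.54, 6.29 and 6.41 at 50 µg/ml of 10 nm silica, against 6.33, 6.50 and 6.77 in untreated cells. With 500 nm silica it was higher at each dose, by 0.65, 0.52 and 0.49 for 250, 500 and 1000 µg/ml (limma adjusted p = 0.00874, 0.0166 and 0.00642). The call at 1000 µg/ml was kept without any 1 array. That at 250 µg/ml was lost without untreated replicate 1 or replicate 1 at that dose (limma adjusted p = 0.0831 and 0.0652), and that at 500 µg/ml without untreated replicate 1 or 2 or any 1 array of that dose (0.0511 to 0.0932). With 10 nm silica at 50 µg/ml the difference was -0.12 (limma adjusted p = 0.477), and Ptgir was lower with 10 nm than with 500 nm silica at the highest doses (-0.61, limma adjusted p = 0.00257). At the higher matched surface it was lower with 10 nm silica as well (-0.47, limma adjusted p = 0.0303), with a p of 0.067 to 0.188 without any 1 array of 10 nm silica or without replicate 1 or 3 of 500 nm silica.

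Of 12 other phosphodiesterase genes 8 were measured, and 2 were higher at 50 µg/ml of 10 nm silica, where 7.58% of all genes were. Pde1b, a calmodulin-dependent enzyme, read 7.49, 7.44 and 7.10 there, against 7.02, 6.78 and 6.72 in untreated cells, and 6.51, 6.65 and 6.51 at 1000 µg/ml of 500 nm silica. It was 1.42-fold higher with 10 nm silica (log2 difference 0.51, limma adjusted p = 0.00357), while with 500 nm silica the difference was -0.28 (limma adjusted p = 0.102). Between the sizes Pde1b was 1.73-fold higher with 10 nm silica at the highest doses (0.79, limma adjusted p = 0.000173) and 1.89-fold higher at the matched surface of 20 against 1000 µg/ml (0.92, limma adjusted p = 6.84e-05). Pde10a was higher at 50 µg/ml of 10 nm silica (0.49, limma adjusted p = 0.0357), with a p of 0.0674 to 0.152 without any 1 untreated array or without replicate 2 or 3 at that dose, and 0.0801 with the mean of its probe sets.

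Between the highest doses, 4 of the 51 measured genes of the pathway list were higher and 1 lower with 10 nm silica, where 3.37% and 4.15% of all genes were. The 1 lower was Ptgir, and with Pde1b and Calcrl the higher ones were the anchor gene Akap9 (1.07, limma adjusted p = 0.00452) and the cyclase gene Adcy9 (0.49, limma adjusted p = 0.0419), both named after their values were seen. For Adcy9 the p was 0.0565 to 0.206 without replicate 2 or 3 of 10 nm silica or without any 1 array of 500 nm silica, and 0.304 with the mean of its probe sets.

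Of 8 other subunits and inhibitors of protein kinase A, 7 were measured and 2 were lower at 50 µg/ml of 10 nm silica, where 12.6% of all genes were. Prkar2a, the regulatory subunit RII alpha, was 2.14-fold lower (log2 difference -1.09, limma adjusted p = 0.0255), and the p was 0.0871 to 0.135 without untreated replicate 1 or 2 or without replicate 3 at that dose (a difference of -0.82), and 0.0518 after quantile normalization. Pkig, an inhibitor of the kinase, was lower (-0.55, limma adjusted p = 0.0304), and the p was 0.0864 to 0.132 without untreated replicate 3 (a difference of -0.33) or without replicate 1 or 2 at that dose, and 0.134 and 0.0706 after quantile normalization and median centring. Neither gene was called at 1000 µg/ml of 500 nm silica. With replicate number as a block in the fit both were lower there (-0.915 for Prkar2a and -0.512 for Pkig, limma adjusted p = 0.00443 and 0.00442). Of 13 anchoring proteins 9 were measured, and 2 were lower at 1000 µg/ml of 500 nm silica, where 10% of all genes were. The mitochondrial anchor Akap1 (-0.94, limma adjusted p = 0.00889) stood at -0.53 without untreated replicate 3 (0.0295), and its call was lost after quantile normalization (0.0551). The other was the nuclear anchor Akap8 (-0.47, limma adjusted p = 0.0422), whose p was 0.0663 to 0.186 without any 1 untreated array or without replicate 1 or 3 at that dose, and 0.0729 after median centring.

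None of the 6 measured adenylyl cyclases other than Adcy7, the 6 G protein subunits, the 4 CREB family members and coactivators, the single measured Epac gene or the single measured exporter was called at either highest dose against untreated cells. Of all genes, 20.2% were called at the highest 10 nm dose and 15.3% at the highest 500 nm dose. With so few genes in each role, the absence of a call does not show that a role was unchanged. The smallest p of each role belonged to Adcy8 (0.32 at 50 µg/ml of 10 nm silica, limma adjusted p = 0.0765), Gnai2 (-0.33 at 1000 µg/ml of 500 nm silica, limma adjusted p = 0.118) and Creb3 (0.48 there, limma adjusted p = 0.0811). The others were Rapgef3, an exchange factor that cyclic AMP activates directly (0.22 with 10 nm silica, limma adjusted p = 0.355), and the transporter gene Abcc5 (-0.34 with 500 nm silica, limma adjusted p = 0.155).

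Of 15 genes known as CREB targets in other settings, 14 were measured, and all of them have further known inducers. The list was chosen with earlier results of these data known. Nr4a1, Fos and Dusp1 were named from it for the size of their differences at a highest dose. The counts of the list and the p-values of these genes are therefore a description. At 20 and 50 µg/ml of 10 nm silica 10 were higher and 0 lower at each dose, and at 500 and 1000 µg/ml of 500 nm silica 4 and 10 were higher and 0 lower. Of all genes, 3.22% and 7.58% were higher at those doses of 10 nm silica, and 1.26% and 5.31% at those of 500 nm silica. Fos was among the 4 at 500 µg/ml of 500 nm silica. Its limma adjusted p was 0.0619 to 0.125 without untreated replicate 1 or 2 or any 1 array of that dose. The median differences of the targets were 1.39 and 1.13 for 10 nm and 0.45 and 0.65 for 500 nm silica, beside 0.03 and 0.04, and 0.02 and 0.07, over all genes. Between the highest doses 4 of the 14 were higher and 0 lower with 10 nm silica, where 3.37% and 4.15% of all genes were, and at the higher matched surface 3 were higher and 1 lower, where 1.81% and 1.04% of all genes were. Nr4a1, an orphan nuclear receptor gene, read 11.26, 11.14 and 10.49 at 50 µg/ml of 10 nm silica, against 8.66, 8.87 and 8.34 at 1000 µg/ml of 500 nm silica, and was 5.06-fold higher with the small particles (log2 difference 2.34, limma adjusted p = 8.93e-08). Fos, a subunit of AP-1, was 2.66-fold higher with 10 nm silica in the same pair (1.41, limma adjusted p = 0.00011). Dusp1, a phosphatase of MAP kinases, did not pass there (-0.13, limma adjusted p = 0.482), with a mean of 11.11 ± 0.14 for 10 nm and 11.25 ± 0.11 for 500 nm silica. At the higher matched surface Nr4a1 was higher with 10 nm silica (2.21, limma adjusted p = 2.91e-07) and Fos did not pass (0.67, limma adjusted p = 0.0724). Dusp1 was the target that was lower there (-0.38, limma adjusted p = 0.0319), with a p of 0.0862 to 0.172 without any 1 array of 10 nm silica or without replicate 1 or 2 of 500 nm silica.

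**Figure D5:**
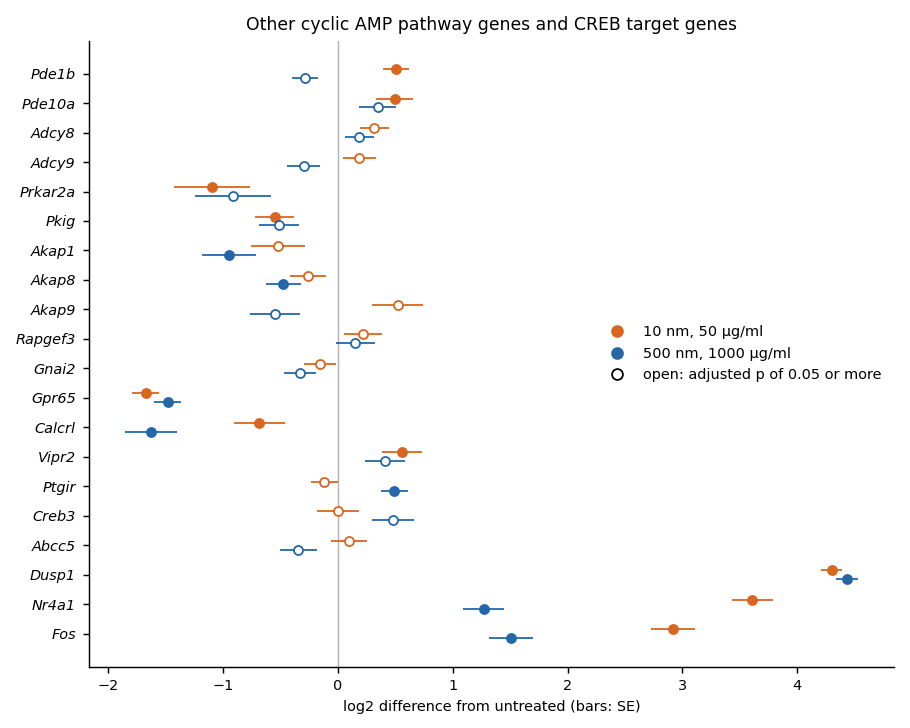
Log2 difference from untreated cells with its SE (horizontal axis) for the named genes of the pathway and the CREB targets, at 50 µg/ml of 10 nm silica and 1000 µg/ml of 500 nm silica. Filled points passed at an adjusted p under 0.05. Gpr65 is lower with both sizes, -1.67 and -1.48, and Nr4a1 is higher with 10 nm (3.61) than with 500 nm silica (1.27).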

How the data were processed

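Total RNA of RAW 264.7 cells was copied from an oligo-dT primer and hybridised to Affymetrix mouse arrays, per the labels' protocols, which favours transcript 3 prime ends. The authors used RMA, per the submitters' processing notes, to make the deposited log10 values, 1 per probe set and array. The base was read from the values (0.641 to 4.343): base 10 puts the brightest at 22019 intensity units, base 2 at 20.3. They were multiplied by 3.3219 to give log2 values, and every fold change rests on that reading. Probe sets with several symbols (691) or none (1606) in GEO's platform table, possibly outdated, were left out.

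R 4.3.3 with limma 3.58.1 (lmFit, eBayes; group was the single factor over all 21 arrays) tested 12393 genes in 11 comparisons, two-sided. Simulated data with known changes were used to check the script. Alternatives were a replicate block, quantile normalization, median centring, array weights, leaving out the dimmest 33.3% of genes, the mean of all probe sets, an intensity trend, and each array left out. Using only replicates 1 and 2 was added after replicate 3 was seen to stand apart. The members, gene lists and comparisons were chosen with earlier results of these data known. Genes named were all members, the 5 nearest profiles to Pde4b and, from each role of the lists, up to 3 genes called at a highest dose with the largest differences, or the one with the smallest p. Ptgir, Adcy9 and Akap9 were named after their values were seen. Figures were drawn with matplotlib 3.10.9.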

Additional observations from a re-analysis of the deposited data

How the results depend on the processing

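The labels do not say what a replicate number marks, and the numbers were not taken to pair the samples, since only 51 of 63 same-numbered pairs had deviations that correlated over 0.1 (-0.24 to 0.76 over all pairs). That 15 of 21 arrays were closest to their own number, not all, is a hint of pairing from the data, not the design. With the replicate block, limma called 214, 2235 and 4544 genes at the rising 10 nm doses, 110, 710 and 3433 at the rising 500 nm doses, 37, 789 and 2071 in the 3 size pairs as ordered above, and 2821 and 1923 for the 10 nm and 500 nm slopes. With array weights the counts were 1219, 3152, 6254, 371, 2317, 4854, 136, 2254, 4766, 4129 and 3346 in the same order. Unweighted and without a block they were 95, 1315, 2506, 53, 343, 1898, 11, 353, 932, 1509 and 1016. Only replicates 1 and 2 gave 7 in the first size pair. Leaving out 1 array gave 60 to 96 genes at the lowest 10 nm dose (60 without its replicate 1), 35 to 50 at the lowest 500 nm dose (35 without its replicate 2) and 216 to 298 at its middle dose (216 and 225 without replicates 3 and 1). It gave 6 to 11 in the first size pair (6 without replicate 2 of either group) and 191 to 256 in the second (191, 192 and 223 without 10 nm replicates 1, 2 and 3, 195 and 213 without 500 nm replicates 1 and 3). It gave 543 to 906 in the third (543 and 565 without 500 nm replicates 1 and 2), 837 to 1682 for the 10 nm slope (837 without replicate 2 at the lowest dose) and 646 to 829 for the 500 nm slope (646 and 650 without replicates 1 and 3 at 250 µg/ml). The cause was not tested, and the fits that left arrays out also held fewer arrays.

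The replicate block ended no call among the members and passed 10 more, among them Ptger4 at 20 and 50 µg/ml of 10 nm silica (limma adjusted p = 0.00293 and 0.00321), and Adcy7 between the highest doses (0.592, limma adjusted p = 0.00428) and at the higher matched surface (0.466, limma adjusted p = 0.0401). The dimmest Crem probe set reversed the called values, with -0.486 and -0.388 at 20 and 50 µg/ml of 10 nm silica, -0.191 and -0.4 at 500 and 1000 µg/ml of 500 nm silica, 0.0122 between the highest doses and slopes of -0.084 and -0.165. The second Prkar1a probe set reversed the 1000 µg/ml value to -0.0268. The Pde4b difference at 50 µg/ml of 10 nm silica was -1.92 to -2.26 over single arrays left out and -1.95 to -2.10 over both scalings.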
